A study of Mus musculus with 23 samples.

Results

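This account concerns 43 genes that cut, inhibit or guide the cutting of the extracellular matrix, taken from RNA sequencing of mouse hippocampal cultures with and without the CRE recombinase that deletes *Nedd8*. A protein-coding gene was taken when its symbol was Mmp, Adamts, Adamtsl or Timp followed by a number and when its raw counts summed to at least 50 over all 23 libraries. Of 21667 protein-coding genes listed, 51 had such a symbol and 43 met the count. They are 15 matrix metalloproteases (MMPs), 19 ADAMTS proteases, 5 ADAMTS-like genes and 4 tissue inhibitors of metalloproteases (TIMPs). Just inside the limit were *Adamts19* with 56 counts in all, *Mmp12* and *Mmp25* with 75 each and *Mmp13* with 82. Just outside was *Mmp10* with 43, and *Mmp21* had 12. *Mmp1a*, *Mmp1b*, *Mmp7* and *Mmp8* had 1 count each, and *Mmp20* and *Mmp27* had 0.

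All cultures came from newborn (P0) mice homozygous for the Nedd8cKO allele, in which loxP sites flank exons 2 and 3 of *Nedd8*, so the RFP controls carry the floxed allele too. The allele was made in FVB/N zygotes, and the study's reporting form gives the mice as C57BL/6N. The neurons were infected with lentivirus that expressed either RFP or CRE-RFP from the Synapsin1 promoter, which is active in neurons, and were collected after 12 days in culture according to the labels, while the study's methods put the harvest 1 day later. Such cultures can hold glia and other cells that the promoter does not reach, and the sex of the pups was not checked. There were 12 CRE and 11 RFP libraries. Their titles carry a number from 1 to 3 beside the virus and then a replicate number. The first number is read here as a culture, which neither labels nor methods put in words, and "CRE 1-3" means the third library of number 1. The labels also do not say whether libraries of 1 culture are separate dishes or technical repeats. Every p therefore measures the spread between libraries, except in the fit with counts summed per culture, where it measures the spread between cultures.

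MMPs and ADAMTS proteases hold a zinc ion in the active site and are made as inactive proenzymes. Plasmin, furin-like convertases or other MMPs remove the propeptide, and TIMPs then plug the active site in a tight complex. Some MMPs are anchored in the plasma membrane, while ADAMTS proteases are secreted and bind matrix through thrombospondin repeats. ADAMTS-like proteins share those repeats but lack the protease domain. In brain these enzymes are known for trimming the lattice of hyaluronan, lecticans and tenascins around neurons, for shedding cell-surface proteins and for opening the matrix to growing neurites and vessels.

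Groups were compared over 10 CRE and 11 RFP libraries, without CRE 1-3 and CRE 3-3, which the study's methods name as removed. Counts assigned to genes summed to 8923280 to 13345552 per CRE library and 7635735 to 17112815 per RFP library. The removed CRE 1-3 and CRE 3-3 held 7430401 and 1546796 counts, with 0.261% and 1.83% on mitochondrial genes. RFP 2-4 stayed in with 3.44%, and RFP 3-2 had 24.2% of its counts on the ribosomal gene *Rn18s-rs5*. The other 19 libraries had 7.0 to 11.1% mitochondrial counts and at most 4.06% on that gene. Gene levels relative to the other libraries followed the GC content of the transcripts in CRE 1-3, CRE 3-3 and RFP 2-4 (Spearman r = 0.768, 0.592 and 0.535). In the remaining 20 libraries that r ran from -0.143 to 0.307. *Nedd8* itself was at 44.1 to 76.0 CPM (median 61.4; CPM is the count scaled to a library of 1000000 counts) in RFP and 5.92 to 18 CPM (median 11.7) in CRE libraries, with no overlap. Its log2 fold change, CRE over RFP throughout, was -2.41 ± 0.16 (SE, adjusted p = 1.8e-12, edgeR's quasi-likelihood test, adjusted by Benjamini and Hochberg's method across the whole table, as for every adjusted p here).

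The 34 MMP and ADAMTS members share 1 short coding stretch, and it is printed because it separates the catalytic members from the other 9. It encodes the zinc-binding site, whose 3 histidine codons are shown in capitals. In the GENCODE M39 canonical transcripts this spacing of histidines, with glutamate after the first, was found in each of the 34 and in none of the 5 ADAMTS-like or 4 TIMP transcripts. The sequences below are of GRCm39, read 5′ to 3′ on the coding strand, and belong to 8 called proteases described further on.
Mmp14: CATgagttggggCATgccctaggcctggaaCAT
Mmp15: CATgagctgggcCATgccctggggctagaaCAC
Mmp17: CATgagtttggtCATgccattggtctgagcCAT
Mmp3: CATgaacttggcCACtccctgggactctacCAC
Adamts1: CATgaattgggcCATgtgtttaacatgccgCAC
Adamts5: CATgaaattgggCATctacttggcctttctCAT
Adamts17: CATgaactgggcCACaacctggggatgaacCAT
Adamts10: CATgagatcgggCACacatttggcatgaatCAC

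The gene structure differs between the families. In all 15 MMPs the 33 bases lay within 1 exon, as in *Mmp14* (chr14:54675084-54675116, plus strand, exon 5) and *Mmp3* (chr9:7449775-7449807, plus strand, exon 5). In all 19 ADAMTS genes an intron split them, as in *Adamts1* (chr16:85596079-85596433, minus strand, exons 3 and 4 of 9) and *Adamts17* (chr7:66618646-66652221, plus strand, from exon 8 of 23). Of the 33 bases, *Mmp14* shared 27 with *Mmp15*, 25 with *Mmp17* and 21 with *Mmp3*, while *Adamts1* shared 20 with its neighbour *Adamts5* and 28 with *Adamts15*.

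With *Nedd8* deleted, the matrix proteases moved in both directions. *Mmp14*, *Adamts1*, *Adamts5*, *Mmp3* and 7 others rose in CRE libraries, whereas *Mmp15*, *Mmp17*, *Adamts13*, *Adamts17* and *Timp2* fell. Of 37 members that passed the filter on low counts, 16 were called at an adjusted p under 0.05, 43.2%, while 37.9% of all 14482 genes tested were called. Higher were 11 members (29.7%, against 20.2% of all genes) and lower were 5 (13.5%, against 17.8%). With all 23 libraries 16 members were called, against 28.2% of all genes, and over the 21 libraries of the study's count table (without CRE 3-3 and RFP 3-2) 18 were, against 30.2%. The median log2 fold change was 0.10 over the 37 members and 0.02 over all genes. The filter needed 10 libraries over 0.902 CPM. *Mmp3* and *Adamtsl4* had all 10 CRE libraries over that level but 2 and 4 RFP libraries, and *Mmp28*, *Adamtsl3* and *Mmp11* had 3, 4 and 5, so these members were tested largely because CRE libraries were high. In RNA from whole cultures, fewer cells of a type and less RNA per cell cannot be told apart.

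**Figure D1:**
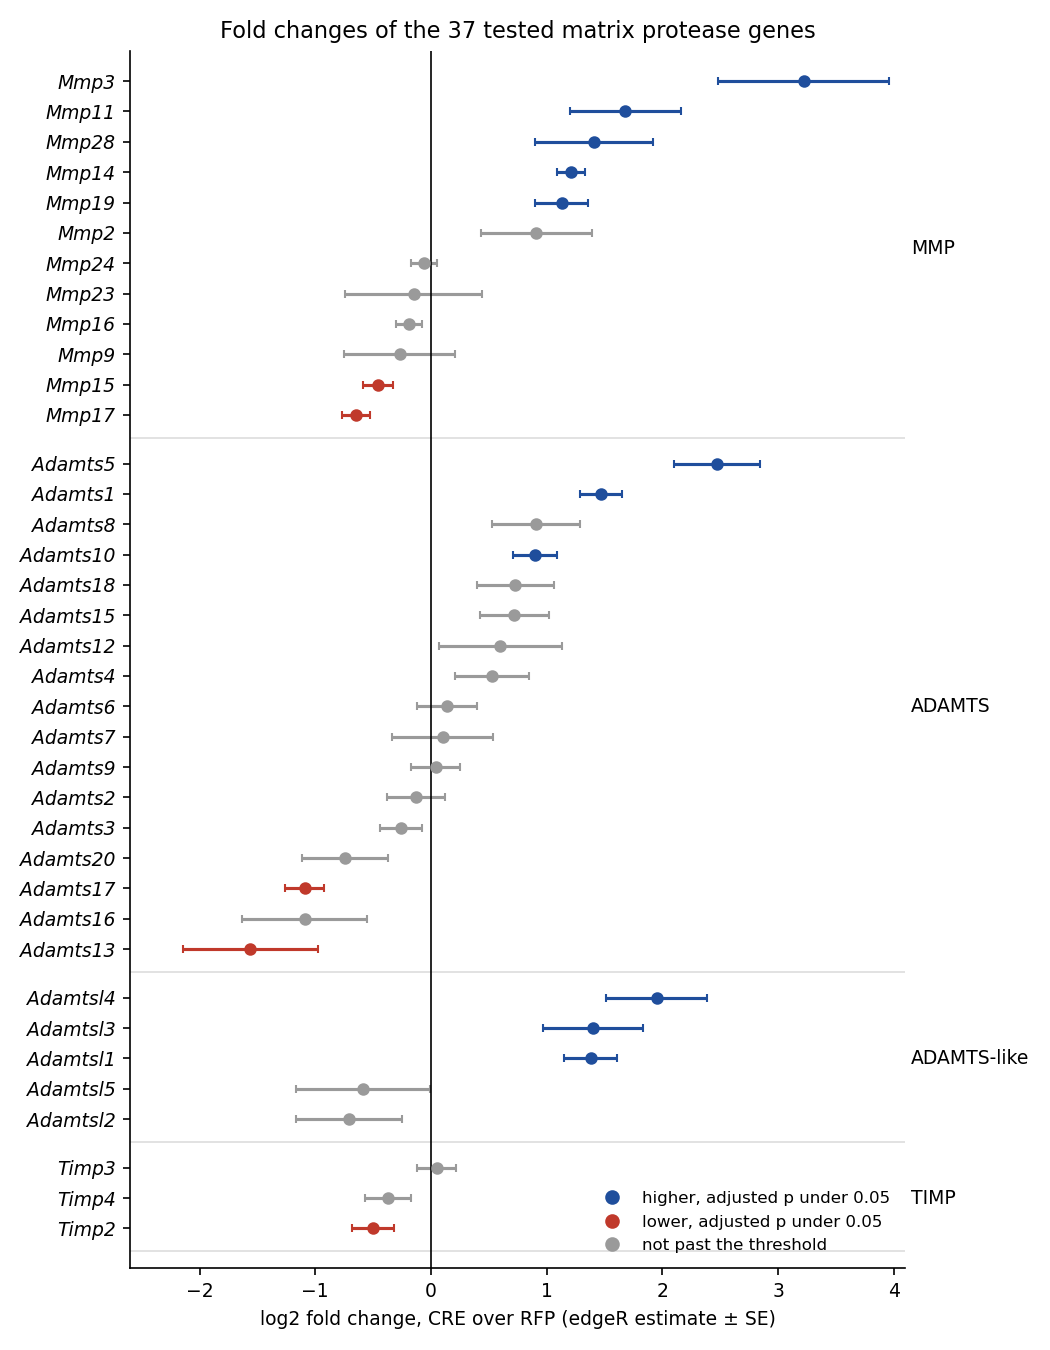
The log2 fold change of CRE over RFP (x axis, edgeR estimate ± SE, 10 CRE against 11 RFP libraries) is plotted for the 37 tested members, grouped by family. Blue points were called higher (11 members), red points lower (5) and grey points were not past the threshold (21). *Mmp3* is farthest to the right at 3.22, and *Adamts13* farthest to the left at -1.56.

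The study set its limits at a log2 fold change of 1.3 and a -log10 p of 6. With the stricter adjusted p in that place 1 member passed, *Adamts1*, and 2.09% of all genes did. On the unadjusted p *Adamts1* and *Adamts5* passed, and so did 2.87% of all genes. With the adjusted p, 2 members passed over all 23 libraries and 3 with DESeq2. Every CRE library lay above every RFP library for *Mmp14* and *Adamts1*, a pattern of 3.07% of all genes. *Adamts17* showed the opposite order, all 10 CRE values under the lowest RFP value, as did 2.6% of all genes.

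The membrane-type MMPs, which work at the cell surface, split. *Mmp14* (GRCm39 chr14:54668878-54682821, plus strand) encodes MT1-MMP, which activates pro-MMP2 and cuts fibrillar collagen. It was at 22.7, 28.4 and 41.5 CPM in the lowest, median and highest RFP library and at 45.8, 66.0 and 86.6 in CRE libraries. The groups did not overlap. The removed libraries, in which gene levels followed GC content, were at 122.9 in CRE 1-3 and 143 in CRE 3-3. The log2 fold change was 1.21 ± 0.12 (adjusted p = 5.6e-09), a 2.32-fold rise. Of the RFP libraries, RFP 2-4 was the highest.

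*Mmp15* and *Mmp17*, the most abundant MMPs of these cultures, went the other way. *Mmp17* (chr5:129661084-129688163, plus strand), a membrane MMP held by a lipid anchor, was at 122.7, 161 and 235 CPM in RFP and 73.7, 97.5 and 156 in CRE libraries. In 8 of the 10 CRE libraries *Mmp17* was under the lowest RFP value, and the log2 fold change was -0.65 ± 0.12 (adjusted p = 5.2e-05). *Mmp15* (chr8:96078895-96101708, plus strand), a close relative of *Mmp14*, was at 89.5, 157 and 185 CPM in RFP and 76.0, 111 and 160 in CRE libraries. Here the groups overlapped over most of their range, with 3 CRE values under the lowest RFP value, and the log2 fold change was -0.46 ± 0.13 (adjusted p = 0.0063). The libraries that the methods remove ran against this direction. CRE 1-3 and CRE 3-3 had 230 and 359 CPM of *Mmp15* and 253 and 301 of *Mmp17*, above every RFP library. With all 23 libraries neither gene was called, at -0.11 (adjusted p = 0.76) for *Mmp15* and -0.31 (adjusted p = 0.26) for *Mmp17*. *Mmp15* also lost its call without culture 1 (-0.33, adjusted p = 0.15) and over the 21 libraries of the count table (-0.40, adjusted p = 0.067).

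The other well-expressed membrane members did not pass the test. *Mmp24*, an MMP of neurons known for cutting cadherins, was at 65.8, 80.1 and 121 CPM in RFP and 52.7, 79.6 and 90.0 in CRE libraries (log2 fold change -0.06 ± 0.11, adjusted p = 0.69). *Mmp16* was at 32.8, 42.2 and 56.5 CPM against 30.0, 37.0 and 51.9 (-0.19 ± 0.11, adjusted p = 0.18). The groups overlapped, with 10 RFP libraries of *Mmp24* and 9 of *Mmp16* within the CRE range. *Mmp25* had no count in 9 RFP and 3 CRE libraries and was not tested.

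Of the stromelysins, *Mmp3* and *Mmp11* were called higher, while *Mmp10* missed the count limit of the rule. Over the filter's level were 2 and 5 RFP libraries against 10 and 9 CRE libraries, so both were tested largely because CRE libraries were high. MMP3 cuts proteoglycans, laminin and fibronectin and can activate other MMPs. *Mmp3* (chr9:7445822-7455975, plus strand) had no count in 5 of 11 RFP libraries and was at a median of 0.10 CPM, with 2.27 as the highest. In CRE libraries it ran from 1.11 over 3.82 to 9.44 CPM, so that 7 CRE libraries lay above every RFP library. The log2 fold change was 3.22 ± 0.74 (adjusted p = 0.0010), the largest of the members tested, on few reads. It ran from 2.31 without culture 1 to 6.57 without culture 3, and the call was lost with counts summed per culture (3.35, adjusted p = 0.077). Both removed libraries had no count of *Mmp3*. *Mmp11* (chr10:75759055-75772330, minus strand), or stromelysin-3, is cut by furin inside the cell and was at 0.071, 0.83 and 2.17 CPM in RFP and 0.557, 3.16 and 5.09 in CRE libraries. The log2 change amounted to 1.68 ± 0.48 (adjusted p = 0.0060), and 7 CRE libraries exceeded every RFP library.

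Another pair of secreted MMPs rose from low levels. *Mmp19*, an MMP of basement membrane proteins, was at 1.75, 3.40 and 4.94 CPM in RFP and 4.1, 7.94 and 11.3 in CRE libraries (log2 fold change 1.13 ± 0.23, adjusted p = 3.1e-04), and 8 CRE libraries exceeded every RFP library. *Mmp28*, known from skin and nerve, was at 0, 0.706 and 1.36 CPM in RFP and 0.084, 1.74 and 3.32 in CRE libraries (1.41 ± 0.51, adjusted p = 0.030). The *Mmp28* call was lost when any of the cultures was left out, with adjusted p between 0.078 and 0.18, and likewise without the filter on low counts (adjusted p = 0.062), with counts summed per culture (0.060) and with limma-voom (0.11).

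No call was made for the gelatinases, which cut denatured collagen and basement membrane. *Mmp2* ran from 0.091 to 6.09 CPM in RFP and from 0.341 to 7.46 in CRE libraries (log2 fold change 0.91 ± 0.48, adjusted p = 0.14). *Mmp9* stayed at or below 3.18 CPM in every library fitted (-0.27 ± 0.48, adjusted p = 0.70), and *Mmp23* did not pass either (-0.15 ± 0.59, adjusted p = 0.87). The macrophage elastase *Mmp12* and the collagenase *Mmp13* were not tested. *Mmp12* had no count in 9 of 11 RFP libraries and more than 3 counts in 7 of 10 CRE libraries, with 1.76 CPM as the highest. *Mmp13* had no count in 8 RFP libraries and more than 3 counts in 6 CRE libraries, up to 1.51 CPM. Both lie near *Mmp3* on chromosome 9, with 76322 bases between *Mmp3* and *Mmp12* and 61049 between *Mmp12* and *Mmp13*. No protein-coding gene was counted as lying between either pair, but *Mmp1b*, on the opposite strand, shares 157 exon bases with *Mmp12*. In the fit without a filter *Mmp12* was called higher (adjusted p = 0.021) and *Mmp13* was not (adjusted p = 0.077).

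**Figure D2:**
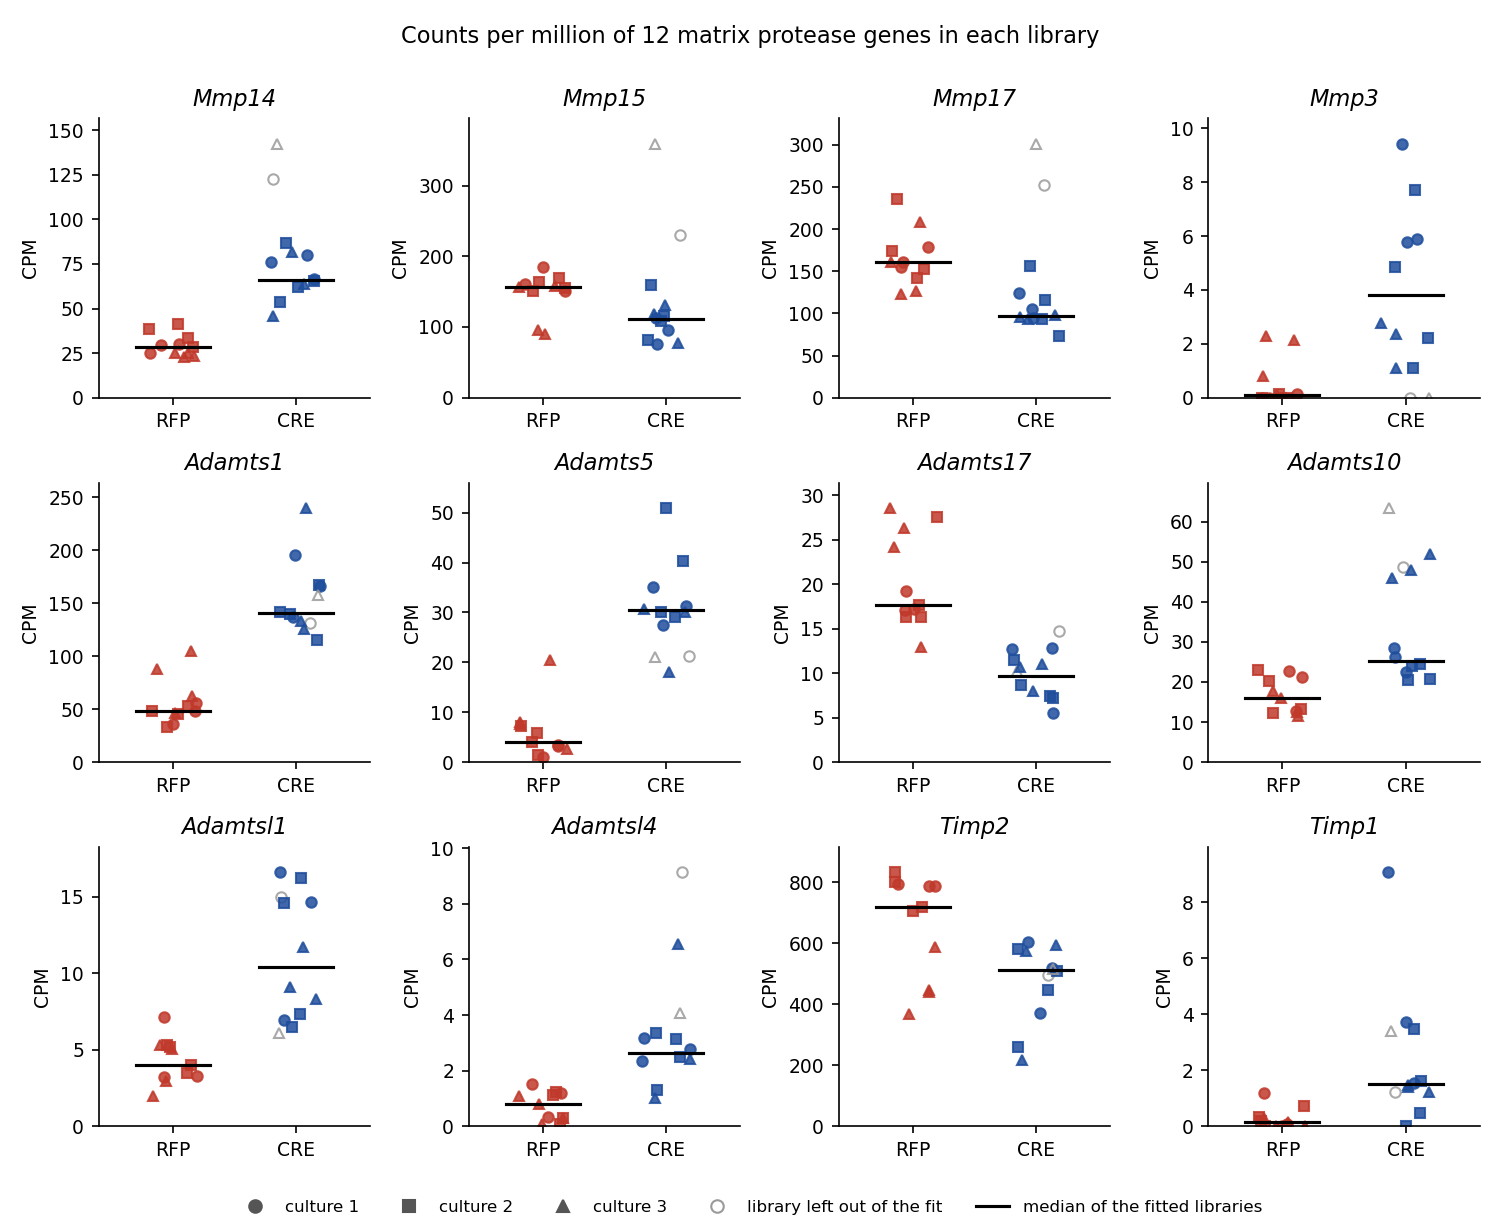
Each point is the CPM of 1 library, with RFP in red and CRE in blue, the marker shape giving the culture, grey open points the removed CRE 1-3 and CRE 3-3, and black bars the medians of the fitted libraries. *Mmp14* and *Adamts1* do not overlap between groups, *Adamts17* lies lower in all 10 fitted CRE libraries, and the removed libraries of *Mmp15* and *Mmp17* lie above every RFP library.

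Among the ADAMTS proteases that cut aggrecan, versican and other lecticans, the adjacent genes *Adamts1* and *Adamts5* rose. *Adamts1* (chr16:85590579-85600009, minus strand) was at 33.1, 48.6 and 105 CPM in RFP and 115, 141 and 240 in CRE libraries. The lowest CRE library was above the highest RFP library, RFP 3-2, and the removed libraries lay within the CRE range at 132 and 158 CPM. A log2 fold change of 1.47 ± 0.18 (adjusted p = 3.8e-07) made this a 2.78-fold rise. *Adamts5* (chr16:85653061-85698716, minus strand), known as the main aggrecan-cutting enzyme of mouse cartilage, lies 53051 bases away with no protein-coding gene between them. It was at 1.07, 4.00 and 20.5 CPM in RFP and 18.1, 30.4 and 51.0 in CRE libraries. Apart from RFP 3-4, which exceeded the lowest CRE library, CRE 3-2, the groups did not overlap, and the log2 fold change was 2.47 ± 0.37 (adjusted p = 1.3e-05), or 5.55-fold.

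The other 5 proteoglycan-cutting members were not called. *Adamts15* was at 8.86, 21.2 and 67.4 CPM in RFP and 25.2, 42.7 and 74.9 in CRE libraries (log2 fold change 0.72 ± 0.30, adjusted p = 0.067), and 5 RFP libraries lay within the CRE range. It passed the threshold with all 23 libraries (0.75, adjusted p = 0.036), without RFP 3-2 (0.81, adjusted p = 0.039), and without culture 3 (1.16, adjusted p = 1.8e-04). *Adamts8*, which lies 19945 bases from *Adamts15* on chromosome 9, was at a median of 7.51 CPM in RFP and 15.6 in CRE libraries (0.91 ± 0.38, adjusted p = 0.065). *Adamts4*, *Adamts9* and *Adamts20* had log2 fold changes of 0.53, 0.04 and -0.74 (adjusted p = 0.19, 0.90 and 0.12).

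Of the remaining ADAMTS genes, 1 rose and 2 fell. *Adamts17* (chr7:66489439-66802919, plus strand), linked to fibrillin microfibrils, was at 12.9, 17.6 and 28.6 CPM in RFP and 5.46, 9.67 and 12.8 in CRE libraries. The highest CRE library lay just below the lowest RFP library, and the log2 fold change was -1.09 ± 0.17 (adjusted p = 1.1e-05). Of the removed libraries, CRE 1-3 at 14.7 CPM lay inside the RFP range and CRE 3-3 at 10.2 did not. *Adamts13*, the protease that cuts von Willebrand factor, was at 0.516, 1.49 and 5.74 CPM in RFP and 0, 0.313 and 1.76 in CRE libraries (-1.56 ± 0.58, adjusted p = 0.035). In 6 CRE libraries it was under the lowest RFP value. This call was lost without culture 1 (-1.10, adjusted p = 0.23) and without culture 3 (-1.54, adjusted p = 0.085).

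*Adamts10* (chr17:33742987-33772758, plus strand), which binds fibrillin-1, was at 11.6, 16.1 and 23 CPM in RFP and 20.4, 25.3 and 52.0 in CRE libraries. In this case 7 CRE libraries exceeded every RFP library, and the log2 fold change was 0.90 ± 0.19 (adjusted p = 3.1e-04). The rise was largest in culture 3, with a mean of 14.4 CPM in RFP and 48.6 in CRE libraries. Without culture 3 the log2 fold change was 0.36 (adjusted p = 0.11). The procollagen N-proteinases *Adamts2* and *Adamts3* were not called (-0.13 ± 0.25 and -0.26 ± 0.18, adjusted p = 0.74 and 0.29), nor were *Adamts6*, *Adamts7*, *Adamts12*, *Adamts16* and *Adamts18*, with log2 fold changes between -1.09 and 0.73. *Adamts14* stayed at or below 2.10 CPM in the fitted libraries and was not tested. *Adamts19* had at most 3 counts in any RFP library and up to 16 in CRE libraries and was not tested either.

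The ADAMTS-like genes have no protease domain and bind fibrillin or other matrix fibres. Of these 5 genes 3 were called higher, as were 20.2% of all genes. *Adamtsl3* and *Adamtsl4* had 4 RFP libraries each over the filter's level against 8 and 10 CRE libraries, so they were tested largely because CRE libraries were high. *Adamtsl1* (chr4:85432409-86346622, plus strand), or punctin, was at 1.98, 4.00 and 7.17 CPM in RFP and 6.49, 10.4 and 16.6 in CRE libraries (log2 fold change 1.38 ± 0.23, adjusted p = 2.0e-05). Only 1 RFP library reached into the CRE range, and the effect was nearly equal in the cultures, from 1.31 to 1.47. *Adamtsl4*, which promotes fibrillin-1 fibres in the eye, was at 0.091, 0.791 and 1.51 CPM against 1.03, 2.64 and 6.54 (1.95 ± 0.44, adjusted p = 7.8e-04), with 8 CRE libraries above every RFP library. *Adamtsl3* was at 0.303, 0.918 and 3.50 CPM against 0.597, 3.23 and 7.19 (1.40 ± 0.43, adjusted p = 0.011). The *Adamtsl3* groups overlapped in 9 RFP libraries, and the call was lost without culture 2 or culture 3 (adjusted p = 0.15 in each). *Adamtsl2* and *Adamtsl5* were not called (-0.71 ± 0.46 and -0.59 ± 0.58, adjusted p = 0.24 and 0.46).

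Of the inhibitors, *Timp2* fell and *Timp3* and *Timp4* did not pass the test. *Timp2* (chr11:118191887-118246566, minus strand), which with MT1-MMP also activates pro-MMP2, was the most abundant member. It was at 370, 718 and 833 CPM in RFP and 217, 514 and 604 in CRE libraries, with a log2 fold change of -0.50 ± 0.18 (adjusted p = 0.037). Only 2 CRE values were under the lowest RFP value. The groups met in culture 3, with means of 461 CPM in RFP and 463 in CRE libraries, against 790 and 499 in culture 1 and 764 and 449 in culture 2. The call was lost without RFP 2-4 (-0.49, adjusted p = 0.059), without culture 1 (-0.43, adjusted p = 0.20) and without culture 2 (-0.33, adjusted p = 0.40).

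*Timp1*, *Timp3* and *Timp4* each sit inside a synapsin gene on the opposite strand. *Timp3* (chr10:86136236-86185371, plus strand, inside *Syn3*), the matrix-bound TIMP that also inhibits ADAMTS proteases, was at 35.6, 48.5 and 64.8 CPM in RFP and 16.0, 51.2 and 73.8 in CRE libraries (0.05 ± 0.17, adjusted p = 0.84). *Timp4* (chr6:115187773-115229336, minus strand, inside *Syn2*) was at 14.0, 25.6 and 36.4 CPM against 7.07, 17.9 and 25.4 (-0.37 ± 0.20, adjusted p = 0.14). It passed the threshold without culture 3 (-0.51, adjusted p = 0.047). *Timp1* (chrX:20736316-20740976, plus strand, inside *Syn1*), the TIMP that rises in many injured tissues, was at 0, 0.158 and 1.2 CPM in RFP and 0, 1.51 and 9.07 in CRE libraries. In 8 of 10 CRE libraries *Timp1* lay above every RFP library. It did not pass the filter, and the fit without a filter gave 3.06 ± 0.69 (adjusted p = 7.9e-04).

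The 3 synapsin genes that host these inhibitors, which encode proteins of synaptic vesicles, were called lower, as were 17.8% of all genes. *Syn1* went from 483, 581 and 738 CPM in RFP to 288, 366 and 425 in CRE libraries (-0.77 ± 0.08, adjusted p = 1.3e-08). Its groups did not overlap, an order that 2.6% of all genes showed. *Syn2* fell by 0.64 (SE 0.15, adjusted p = 0.0014) and *Syn3* by 0.98 (SE 0.23, adjusted p = 0.0013) on the log2 scale. The exons of *Timp3* and *Syn3* share 1734 bases and those of *Timp4* and *Syn2* share 1142, while *Timp1* and *Syn1* share none. Shared exons on opposite strands were also found for other members, such as *Mmp19* with *Tmem198b* (1084 bases), *Mmp28* with *1700020L24Rik* (969), *Mmp24* with *Mmp24os1* (698), *Mmp11* with *Chchd10* (155) and *Adamts7* with *Tbc1d2b* (122). The strand setting of the counting is not given in the sources used here, so reads in these stretches cannot be assigned with certainty. Exons of *Mmp14* share 219 bases with a long noncoding RNA gene, *Gm62879*, that the count files do not list, and several other members overlap such genes with few or no counts. *Timp2* shared 332 bases with *Cep295nl* on its own strand, a gene with 30 counts in all.

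Scaled by exon length, *Timp2* RNA exceeded that of any protease here. The mean level of *Timp2* was 148 CPM per kilobase of exon in RFP libraries and 105 in CRE libraries. *Mmp15* (27.5), *Mmp17* (23.6), *Mmp24* (11.8) and *Adamts1* (10.3) followed in RFP libraries. In CRE libraries *Adamts1* was second at 28.5, ahead of *Mmp15* (20.0), *Mmp17* (15.1), *Mmp24* (11.3) and *Mmp14* (11.1). The ranges of *Mmp15* and *Mmp17* overlapped in both groups, so their order is within the spread of the libraries. *Mmp14* had been seventh in RFP libraries at 4.77.

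**Figure D3:**
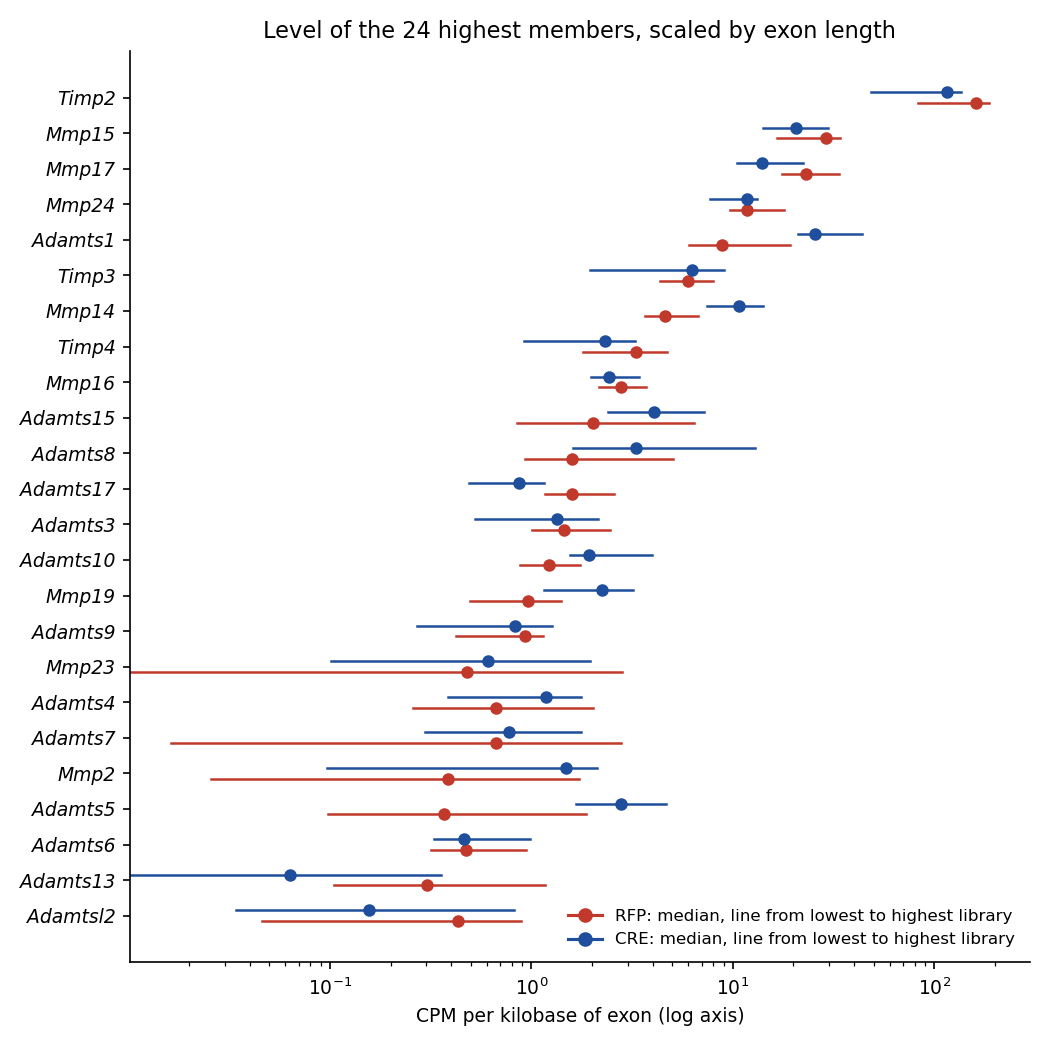
For the 24 members with the highest RFP level, the median (point) and the lowest to highest library (line) are shown in CPM per kilobase of exon on a log axis, RFP in red (n = 11) and CRE in blue (n = 10). *Timp2* stands above all others in both groups. Lines that run to the left edge, for *Mmp23* and *Adamts13*, include a library at 0.

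Summed over their family and scaled by length, the 19 ADAMTS genes were at 20.0 to 38.4 CPM per kilobase in RFP (median 23.2) and 42.1 to 74.4 in CRE libraries (median 47.3), without overlap. That separation rested on *Adamts1*: the other 18 genes were at 12.9 to 23.1 (median 14.5) in RFP and 16.2 to 30.6 (median 21.8) in CRE libraries and overlapped. The 15 MMPs together were at 56.7 to 96.9 (median 72.7) in RFP and 55.1 to 90.4 (median 68.5) in CRE libraries. Without *Mmp15* and *Mmp17* the other 13 MMPs were at 20.1 to 31.7 in RFP and 28.5 to 38.5 in CRE libraries. The 4 TIMPs summed to 90.0 to 196 (median 169) in RFP and 52.2 to 149 (median 126) in CRE libraries, and without *Timp2* to 7.04 to 11.3 (median 8.73) and 3.51 to 15.4 (median 9.20). These sums are descriptions of chosen members and were not tested.

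Marker lists of cell types were compared between the groups as well. The 14 mesenchymal markers (fibroblasts and pericytes) summed to 23.1 to 195.5 CPM in RFP and 198 to 554.5 in the 10 fitted CRE libraries, without overlap, although the removed CRE 1-3 had 183.5. The gap was narrow, from 195.5 CPM in RFP 1-1 to 198.3 in CRE 3-2. *Rgs5*, at 6.54 to 50.4 CPM in RFP and 62.85 to 255 in CRE libraries, separated the groups by itself. So did *Foxc1*, at 1.09 to 8.26 and 24.2 to 87.1 CPM. Every CRE library lay above every RFP library for 3.07% of all genes. Of 11 tested, 4 were called (36.4%, against 37.9% of all genes): *Foxc1*, *Rgs5*, *Pdgfrb* and *Twist1*. All 4 were higher, as were 20.2% of all genes. *Twist1* had a median of 0.413 CPM in RFP libraries, under the filter's level, and 2.43 in CRE libraries. *Col1a1*, *Col1a2*, *Col3a1*, *Dcn* and *Lum* did not pass the test, and none of the 14 was at 0 throughout a group. The 8 neuron markers summed to 5254 to 6983 CPM in RFP and 3253 to 5800 in CRE libraries. Of these, 5 were called lower and 1 higher, 75% in all against 37.9% of all genes. Of 9 astrocyte markers 2 were called higher and 4 lower, 66.7% in all. Their sums were 3037 to 7848 in RFP and 1560 to 5134 in CRE libraries.

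Of 8 oligodendrocyte lineage markers tested, 5 were called lower (62.5%, against 17.8% of all genes lower). Their sums were 584 to 1873 CPM in RFP and 425 to 1009 in CRE libraries. Microglia markers were near 0, at 1.09 to 6.56 CPM (median 2.30) in RFP and 0.256 to 8.06 (median 4.07) in CRE libraries. *Cx3cr1* was at 0 in every fitted CRE library. Of 2 microglia markers tested, *Tmem119* was called higher. *Tmem119* stayed at or below 0.92 CPM in RFP libraries, so it was tested largely because CRE libraries were high. Endothelial markers stayed at or below 12.1 CPM, with *Cldn5* at 0 in every RFP library and *Kdr* called lower, and the choroid and ependymal list ran from 8.67 to 49.4 CPM with none called. The part of these cell types in the changes of *Mmp3*, *Mmp14*, *Adamts1*, *Adamts5*, *Timp2* and the other members was not tested.

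**Figure D4:**
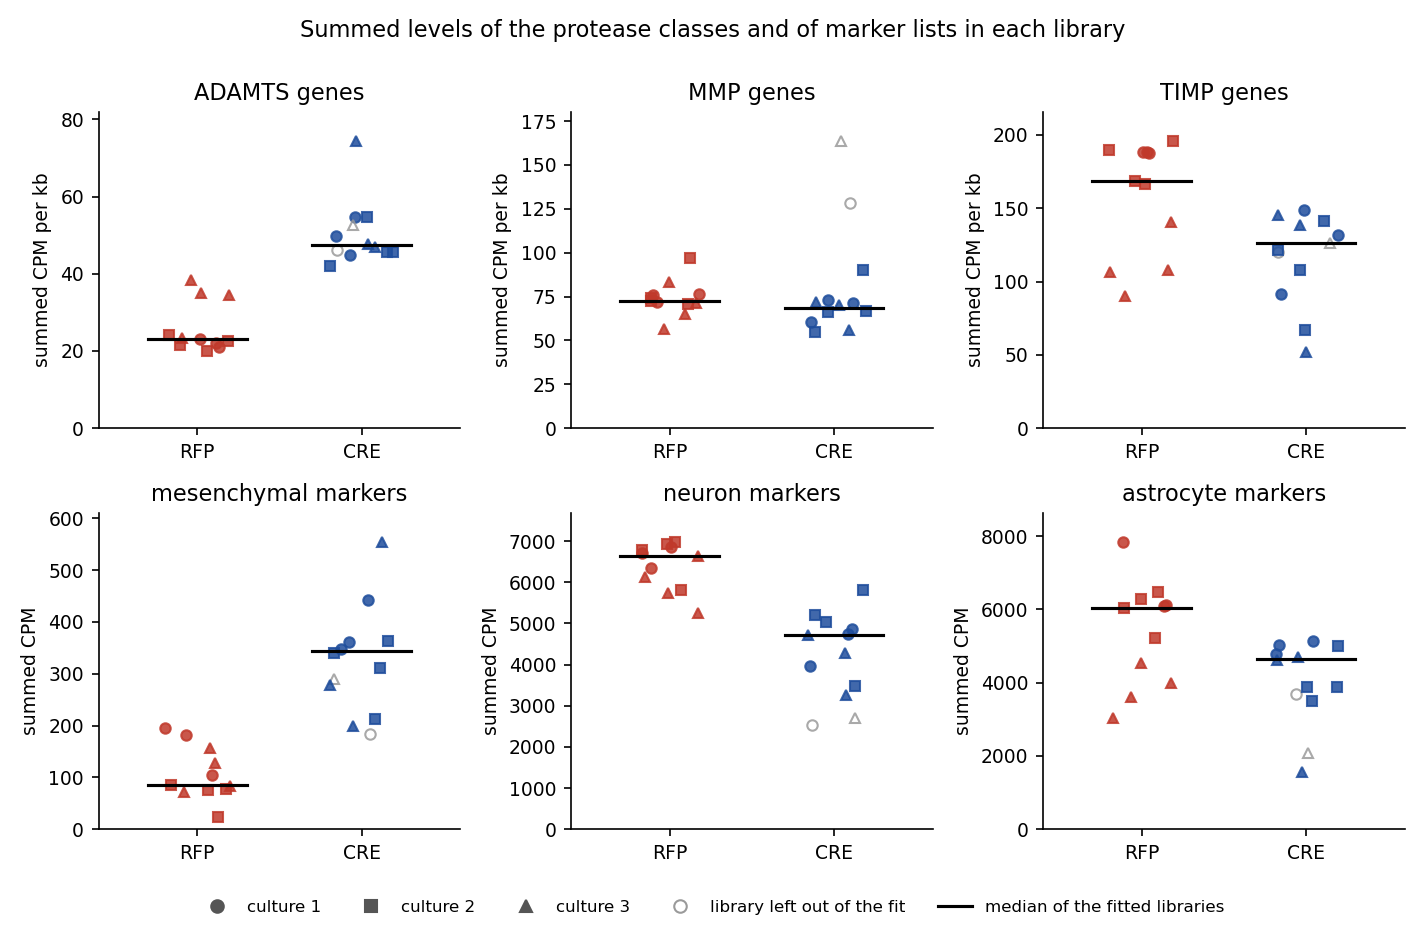
Points are libraries as in the plot of CPM by member, with summed CPM per kilobase of exon for the 19 ADAMTS, 15 MMP and 4 TIMP genes (top) and summed CPM of the mesenchymal, neuron and astrocyte marker lists (bottom). ADAMTS and mesenchymal sums do not overlap between the 11 RFP and 10 fitted CRE libraries, whereas the other 4 sums do, as do the ADAMTS genes without *Adamts1* (not drawn). The gap between the mesenchymal sums is narrow, and *Rgs5* and *Foxc1* each separate the groups alone.

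The sign of the effects was also compared between cultures. The log2 fold change had 1 sign in all 3 cultures for 25 of 37 members, not far from the 58.3% of all genes. It did so for 15 of the 16 called members. These were called on the same libraries, so a shared sign is partly given by the call and is no separate support. *Timp2* was the exception, at -0.66, -0.77 and 0.01. Steadiest among the called members were *Mmp17* (-0.61 to -0.69) and *Adamtsl1*. *Adamts5* rose by 3.61, 3.02 and 1.44 in cultures 1, 2 and 3, and *Adamts10* by 0.44, 0.38 and 1.75.

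A test of whether the CRE effect differs between cultures called *Mmp3* alone of the members (adjusted p = 0.046), as it did 0.311% of all genes. *Mmp3* had 2 counts in all over the RFP libraries of culture 1, 2 in culture 2 and 45 in culture 3. Per CRE library it had 74 to 129 counts in culture 1, 13 to 85 in culture 2 and 12 to 28 in culture 3. The means were 0.047 CPM in RFP and 7.03 in CRE libraries of culture 1, 0.030 and 3.97 in culture 2, and 1.33 and 2.07 in culture 3, with single libraries of the cultures overlapping. With all 23 libraries the difference was not called (adjusted p = 0.71), nor over the 21 libraries of the count table (adjusted p = 0.91).

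**Figure D5:**
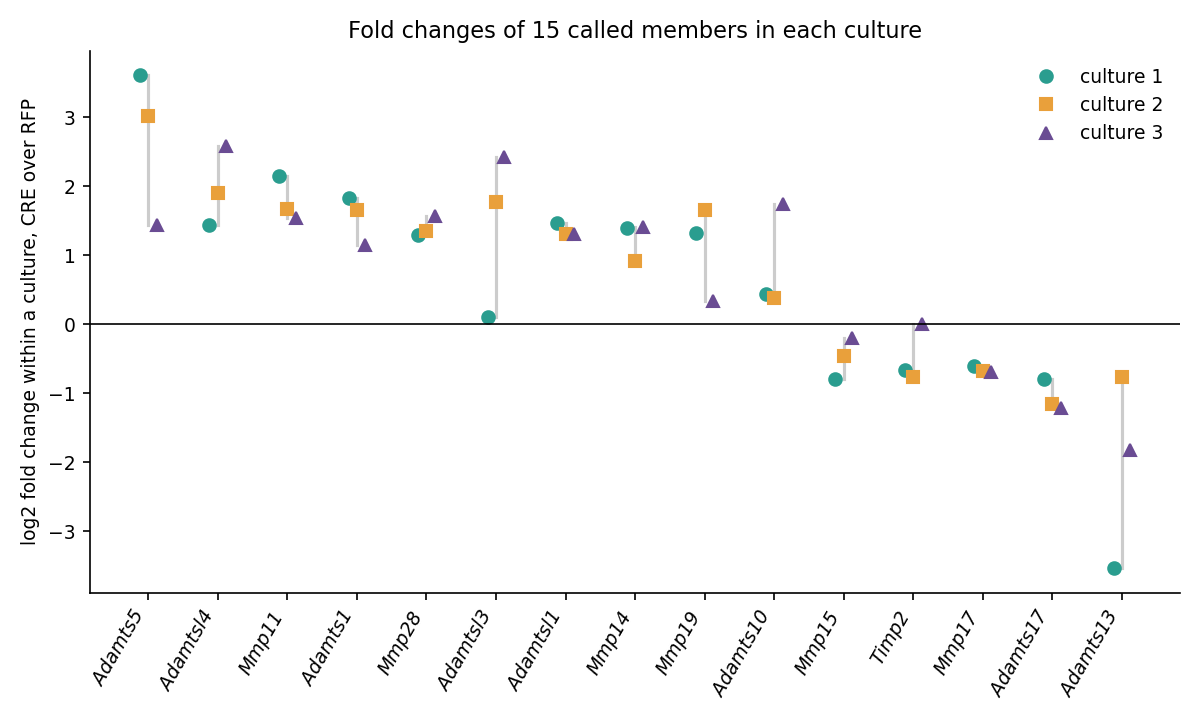
The log2 fold change of CRE over RFP is shown within culture 1 (circles), 2 (squares) and 3 (triangles) for 15 called members, without *Mmp3*, whose RFP libraries of cultures 1 and 2 held 2 counts each in all. Only *Timp2* has a culture (3, at 0.01) on the other side of 0.

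Genes that activate, trap or clear these proteases changed in both directions, 4 higher and 5 lower of 15 tested. With 20.2% of all genes called higher and 17.8% lower, these counts are given as descriptions. *Plat*, tissue plasminogen activator, rose from 25.3, 31.1 and 44.1 CPM in RFP to 45.8, 130 and 163 in CRE libraries (1.85 ± 0.16, adjusted p = 6.4e-10). *A2m*, a general protease trap, rose from 6.73, 13.1 and 31.4 CPM to 43.5, 205 and 328 (3.71 ± 0.34, adjusted p = 3.8e-08). *Plau*, urokinase, rose from 0, 0.453 and 0.929 CPM to 1.88, 3.61 and 10.6 (3.43 ± 0.49, adjusted p = 2.1e-06). All 10 CRE libraries exceeded every RFP library for these genes, a pattern of 3.07% of all genes. *Plau* stayed at or below 0.929 CPM in RFP libraries, so it was tested largely because CRE libraries were high. Plasminogen itself, *Plg*, had no count in any fitted library. *Spock1* (-0.53 ± 0.08, adjusted p = 7.5e-06) and *Spock2* (-0.29 ± 0.07, adjusted p = 0.0019), proteoglycans known to modulate MMP activation, fell, as did the proprotein convertase *Pcsk5* (-1.04 ± 0.17, adjusted p = 1.0e-05). *Furin*, the convertase of many members, was at a median of 56.7 CPM in RFP and 62.2 in CRE libraries (0.16 ± 0.10, adjusted p = 0.23).

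Of 34 matrix substrates tested, 12 were higher and 3 lower, 44.1% in all against the 37.9% of all genes, and their median log2 fold change was 0.68 against 0.02. The glycoprotein *Tnc* rose from 11.6, 14.4 and 20.0 CPM to 39.0, 47.7 and 64.6 (1.69 ± 0.12, adjusted p = 7.4e-12), the laminin chain *Lamc1* from 31.5, 46.3 and 64.2 to 81.9, 120 and 132 (1.26 ± 0.11, adjusted p = 4.0e-10), and *Thbs2* from 0.167, 1.29 and 5.57 to 7.28, 13.9 and 34.5 (3.37 ± 0.42, adjusted p = 5.0e-07). None of these overlapped between groups, a pattern of 3.07% of all genes. The lower genes were parts of the perineuronal matrix. The link protein *Hapln1* fell from a median of 251 CPM to 82.0 (-1.80 ± 0.21, adjusted p = 6.4e-07), the lectican *Ncan* from 994 to 395 (-1.17 ± 0.16, adjusted p = 2.9e-06) and *Tnr* from 298 to 165 (-0.83 ± 0.13, adjusted p = 8.0e-06). *Acan*, the aggrecan that *Adamts1* and *Adamts5* cut, rose from 6.07, 9.16 and 67.2 CPM to 24.5, 42.7 and 292 (2.12 ± 0.58, adjusted p = 0.0071). Its groups overlapped, and only 2 CRE libraries exceeded every RFP library. *Bcan* (0.00 ± 0.20) and *Vcan* (0.25 ± 0.23) did not pass the test.

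Among 10 tested ADAM proteases, membrane-bound relatives of the ADAMTS family, the sheddases *Adam9* (0.58 ± 0.12, adjusted p = 1.9e-04) and *Adam17* (0.49 ± 0.15, adjusted p = 0.0089) rose. *Adam11*, a catalytically inactive ADAM of neurons, fell by 1.27 on the log2 scale (SE 0.13, adjusted p = 1.4e-08).

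Promoter sequence, 250 bases before to 50 after the start in the RefSeq table of GRCm38.p6, was matched for 28 of the 43 members. Both strands were searched. The AP-1 motif TGANTCA was found in 3 members, *Mmp3*, *Mmp12* and *Mmp13*, and in 7.81% of 32851 promoters. TATAAA was found in 5 members and 13.6% of promoters, and the antioxidant response core TGACNNNGC in 6 members, none of them called higher, and 12.4% of promoters. The 250 bases before the start are given for the 2 members called higher that hold any of these motifs there, with the motifs in capitals. They are of chr9:7445572-7445821 on the plus strand and chr16:85803114-85803363 on the minus strand of GRCm38.p6.
Mmp3: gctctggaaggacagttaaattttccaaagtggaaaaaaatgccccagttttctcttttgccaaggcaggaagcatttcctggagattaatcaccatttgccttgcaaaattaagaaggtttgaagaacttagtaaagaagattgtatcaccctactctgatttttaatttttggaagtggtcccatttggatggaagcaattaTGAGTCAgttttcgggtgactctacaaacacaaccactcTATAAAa
Adamts1: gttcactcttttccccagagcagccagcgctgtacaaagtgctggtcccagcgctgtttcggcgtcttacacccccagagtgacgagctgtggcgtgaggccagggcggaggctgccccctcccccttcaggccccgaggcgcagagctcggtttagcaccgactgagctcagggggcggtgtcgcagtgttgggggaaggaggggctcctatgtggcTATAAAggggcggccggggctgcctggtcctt
These matches describe letters in a window and are not tests of binding.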

How the data were processed

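Per the labels and the study's methods, the authors used the Illumina Stranded mRNA Prep kit and a NovaSeq6000, STAR 2.7.8a for alignment to GRCm39 (Ensembl 110) and featureCounts 1.5.0-p1 for counting. They deposited raw whole-number counts per gene. Strand and multi-mapping settings are not given in the sources used here. GENCODE M39 named 56323 of 56941 genes, with 99.95% of counts.

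Groups came from sample titles. edgeR 4.0.16 (R 4.3.3; filterByExpr, TMM, robust quasi-likelihood fit, Benjamini-Hochberg over all genes tested) compared 10 CRE with 11 RFP libraries. CPM used TMM factors over all 23 libraries. Alternatives covered libraries, cultures, DESeq2 1.42.0, limma-voom 3.58.1, scaling, filter, blocks, sums per culture and GC trend. On simulated data of 10 CRE and 11 RFP libraries (14309 genes) edgeR recovered 34.9%, 76.9% and 96.9% of genes changed by 0.5, 1 and 2 log2 units and called 0.0354% of unchanged genes. There 63, 65 and 64 genes were changed, far fewer than were called in the data. Simulated libraries were drawn independently with no culture effect, so these rates cannot be carried over to the comparison itself. A count of 0 allows up to 3 counts, and depth limits cover counting error only. No pair of libraries of the same group and culture was identical, and other pairs were not compared. Members and lists were chosen with earlier results of these data known. Named with values were all called members, the TIMPs, the 10 highest members by CPM per kilobase, *Nedd8*, the synapsin genes and up to 3 called genes per direction of each pathway list, while *Furin*, *Acan*, *Bcan*, *Vcan*, *Plg* and other uncalled members were added after their values were seen. The zinc-site pattern was loosened at 1 glycine after the stricter form missed 6 ADAMTS members. Python 3.11.15, numpy 2.4.6, pandas 2.3.3, scipy 1.17.1 and matplotlib 3.10.9 did the rest.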

Additional observations from a re-analysis of the deposited data

Results flagged for a closer look

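*Adamtsl4* stood at 6.54 CPM in library CRE 3-1, far from the next CRE library at 3.35, a gap of 0.578 of the range over 10 CRE libraries. Chance flags about 1 group in 20 in this way. Single libraries stood apart for other members too. *Timp1* was at 9.07 CPM in CRE 1-4, with 3.72 next, and *Adamts8* at 61.0 in CRE 3-2, with 30.8 next. *Adamts5* was at 20.5 CPM in RFP 3-4, with 8.05 in the next RFP library. The effect of CRE on *Mmp3* differed between cultures by the interaction test (adjusted p = 0.04566, edgeR), with a higher mean in RFP and a lower mean in CRE libraries of culture 3. That difference was not called with other sets of libraries.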

How the results depend on the processing

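Of the 16 called members, 8 kept direction and call under all 16 alternatives (*Adamts1*, *Adamts5*, *Adamts17*, *Adamtsl1*, *Adamtsl4*, *Mmp11*, *Mmp14* and *Mmp19*), and none of the 16 changed sign. The cause of the differences below was not tested. Members called ranged from 13 (9 higher and 4 lower with counts summed per culture, 11 and 2 without culture 1) to 21 (GC trend removed with culture as replicate block, 13 higher, 8 lower). Lower members numbered 3 with all 23 libraries and 2 to 5 with a culture left out. Past the study's limits were 2 members with all 23 libraries, 3 with DESeq2 and 2 on the unadjusted p, a setting chosen after seeing the data. Members whose effect differed between cultures numbered 0 with all 23 libraries and 0 over the 21 libraries of the count table. Uncalled *Mmp24* turned to 0.10 with all 23 libraries, 0.03 over the 21 and 0.01 without RFP 2-4. *Timp3* turned to -0.01 over the 21, -0.03 with limma-voom, -0.06 with the GC trend removed and -0.07 with the block added, and ran from -0.01 (without culture 1 or 3) to 0.12 with a culture left out.

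Marker lists moved too. Astrocyte markers called numbered 2 with sums per culture and 0 to 7 with a culture left out, and oligodendrocyte lineage markers 3 and 0 to 8. Microglia markers called were 0 with all 23 libraries, 2 with limma-voom, 2 without a filter and 0 to 1 with a culture left out. Endothelial markers were 0 with limma-voom, 2 without a filter, 0 with library number as replicate block and 0 to 1 with a culture left out. Mesenchymal markers called ran from 3 to 6.

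The deviations of CRE and RFP libraries correlated weakly within a culture number (r = 0.112, 0.186 and 0.073), and each correlated best with its own number. Between different numbers r ran from -0.137 to 0.007. So few weak correlations cannot decide whether culture numbers pair the samples. With culture as replicate block 19 members were called (14 higher, 5 lower), and 16 with library number as replicate block.

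For *Mmp3*, *Mmp28*, *Adamts13*, *Timp1* and the untested members, depth limits the precision, since most libraries held few counts.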
